A study of Mus musculus with 4 samples.

Results

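Some exonic circular RNAs (circRNAs) of differentiated C2C12 cells took in the first exon, the last exon or the whole of a transcript model. They were chosen from the files' own annotation of exonic circles: a circle belonged here where no intron was given on 1 or both of its sides. A circle is 1 chromosome, start, end and strand, and its annotation came from the entry with most reads. There were 236 such circles of 4074 exonic circles (5.79%) and of 69136 circles of any kind. Of these, 108 held the first exon but not the last, 81 held the last but not the first, and 47 spanned a whole model. Ensembl-style identifiers named 149 of the models (87 first, 50 last and 12 whole), and assembled models named 87 (21, 31 and 35). The other 3838 exonic circles had an intron on both sides and are called internal below.

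C2C12 is an established line of mouse myoblasts, which form myotubes when serum is low. All 4 libraries came from cells kept 3 to 4 days in medium with 2% horse serum, without any labelled genetic change, 2 from total RNA (labelled Control, called the total libraries) and 2 from RPAD RNA. RPAD digests linear RNA with RNase R (30 min), adds a poly(A) tail to linear RNA that is left and removes it with oligo-dT beads. The protocol names HeLa RNA in the RNase R step, while all 4 libraries are labelled C2C12, and this was not resolved. Separate cultures are not stated for the 2 libraries of a kind, so p-values refer to a spread between libraries that may be technical alone. The files hold circles and no gene symbols, and 0 of the 222 models of these circles matched the name tables at hand. Markers of muscle could therefore not be checked, and hosts are given by mm9 position, counted from 1, and transcript identifier.

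A circRNA forms when the spliceosome joins a downstream 5' splice site back to an upstream 3' splice site. The first exon of a transcript has no 3' splice site before it and the last exon has no 5' splice site after it, so circRNAs made by back-splicing usually consist of internal exons. A circle that takes in a transcript end is thus joined, on at least 1 side, at a position that the model does not mark as a splice site. RNase R degrades linear RNA from its 3' end and spares closed circles, which is why libraries with and without it are compared.

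Exonic back-splice reads numbered 16179 and 15392 in the total libraries and 55971 and 91868 in RPAD. The Ensembl-style and assembled models of these circles numbered 222, and 12 models gave 2 or more of them (26 circles), so circles of a model are not independent. All values below rest on counts of reads over the back-splice junction and so on that depth. Among circles of total RNA with at least 5 reads in library 1, 43.1% of internal circles were listed in library 2. Between the RPAD libraries the same share was 26.7%. Many circles with several reads were thus absent from the other library of the same kind.

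Terminal-exon circles made up 4.41% to 5.79% of the exonic circles listed in each library, and the order of the 2 kinds of RNA depended on depth and on the models counted. Total RNA libraries listed 102 and 94 of them and RPAD libraries 22 and 45. As a share of exonic circles these were 4.93% (95% exact interval 4.04 to 5.96) and 5.16% (4.19 to 6.28) in the total libraries, and 4.41% (2.78 to 6.60) and 5.79% (4.26 to 7.67) in RPAD. The RPAD values, from the deeper libraries, lay on either side of both total RNA values. Thinned to 15392 exonic reads each, the libraries gave 4.90% and 5.16% against 3.39% and 3.22% in RPAD, with no overlap (exact permutation p = 0.333). With Ensembl-style models alone the group means were 5.93% and 2.60% (exact permutation p = 0.333). The number listed was 98 ± 5.66 in the total libraries and 33.5 ± 16.3 in RPAD (mean ± SD of n = 2; exact two-sided permutation p = 0.333, the smallest that 2 against 2 libraries can give), and the groups did not overlap.

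Reads on these circles numbered 313 and 308 in the total libraries and 993 and 1518 in RPAD. They were 1.97% ± 0.0470 of exonic reads in the total libraries and 1.71% ± 0.0861 in RPAD (mean ± SD of n = 2; exact permutation p = 0.333). A whole-model circle on chromosome 6 supplied 909 and 941 of the RPAD reads. Without it the RPAD shares were 0.153% and 0.635%, both below the total RNA shares of 1.93% and 2.00%. The difference, RPAD minus total RNA, moved from -0.255 to -1.57 percentage points. That circle had 0 reads in the total libraries, so its removal could only lower the RPAD shares. The direction was thus fixed in advance, and nothing is drawn from it. The leading circle of the total libraries, with 97 and 91 reads, was kept.

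First-exon circles carried most terminal-exon reads in the total libraries, and whole-model circles carried most in RPAD. First-exon circles held 215 and 181 reads in the total libraries and 6 and 46 in RPAD, or 63.7% ± 7.02 and 1.82% ± 1.72 of terminal-exon reads. Whole-model circles held 15 and 14 reads in the total libraries and 963 and 1018 in RPAD, or 4.67% ± 0.175 and 82.0% ± 21.2 (mean ± SD of n = 2; exact permutation p = 0.333 for both shares). Neither share overlapped between groups. Without the chromosome 6 circle the whole-model share of RPAD was 64.3% and 13.3%, and the first-exon share 7.14% and 7.97%, still with no overlap. Last-exon circles held 83 and 113 reads in the total libraries and 24 and 454 in RPAD, or 26.5% and 36.7% against 2.42% and 29.9% of terminal-exon reads, and these shares overlapped (exact permutation p = 0.667). Without the chromosome 6 circle the RPAD shares were 28.6% and 78.7%, and the direction of the group means turned. In the total libraries 97 and 91 of the first-exon reads came from 1 circle of 245 nt. Without that circle first-exon circles would still lead in total RNA 1, but last-exon circles, with 113 reads, would lead in total RNA 2.

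**Figure D1:**
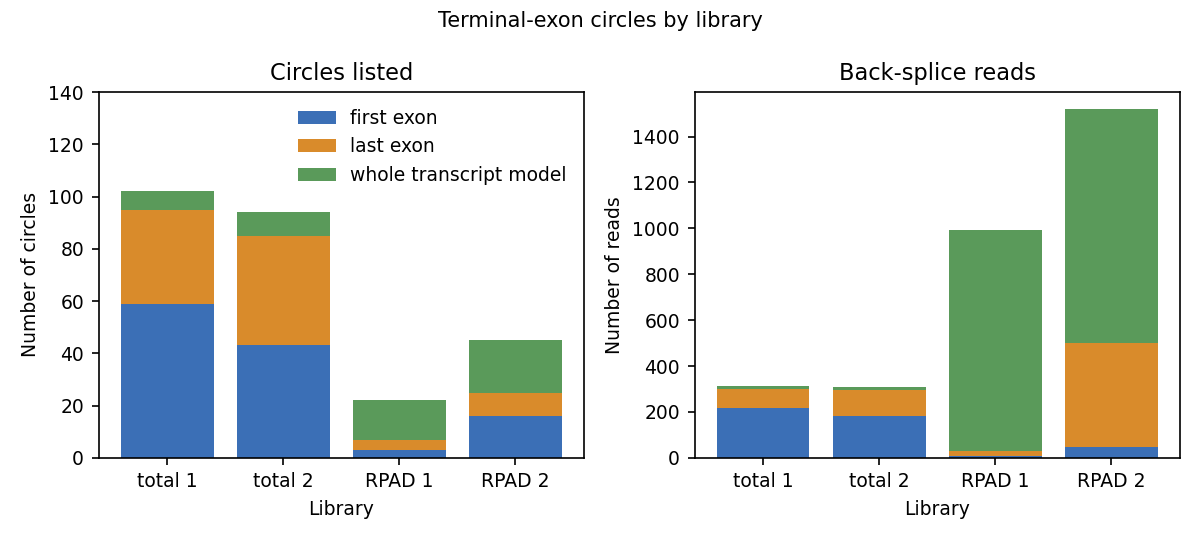
Stacked bars give, for each library, the number of terminal-exon circles listed (left) and the back-splice reads on them (right), split into circles with the first exon, the last exon or the whole transcript model. First-exon circles number 59 and 43 in the total libraries against 3 and 16 in RPAD, and whole-model reads number 963 and 1018 in RPAD against 15 and 14.

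Assembled models named a larger part of these circles in RPAD. Assembled models named 20.6% and 22.3% of the terminal-exon circles listed in the total libraries and 68.2% and 73.3% in RPAD, while for internal circles the shares were 34.1% and 33.4% against 42.1% and 41.4%. In reads the assembled share was 15.3% ± 6.32 and 21.1% ± 21.5 (mean ± SD of n = 2; exact permutation p = 1), and RPAD 1, at 5.84%, lay below both total RNA libraries. Without the chromosome 6 circle, which has an Ensembl-style name, the assembled share of RPAD reads was 69.0% and 95.5%, above both total RNA values of 10.9% and 19.8%. Of all assembled model names in the files 93.0% occurred in 1 library, against 66.8% of Ensembl-style names, and 85 of 123 exonic circles that only assembled models described in at least 2 libraries had different model names there. Whether each library was annotated with its own models was not stated in the labels or files, and its part in these shares was not tested.

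**Figure D2:**
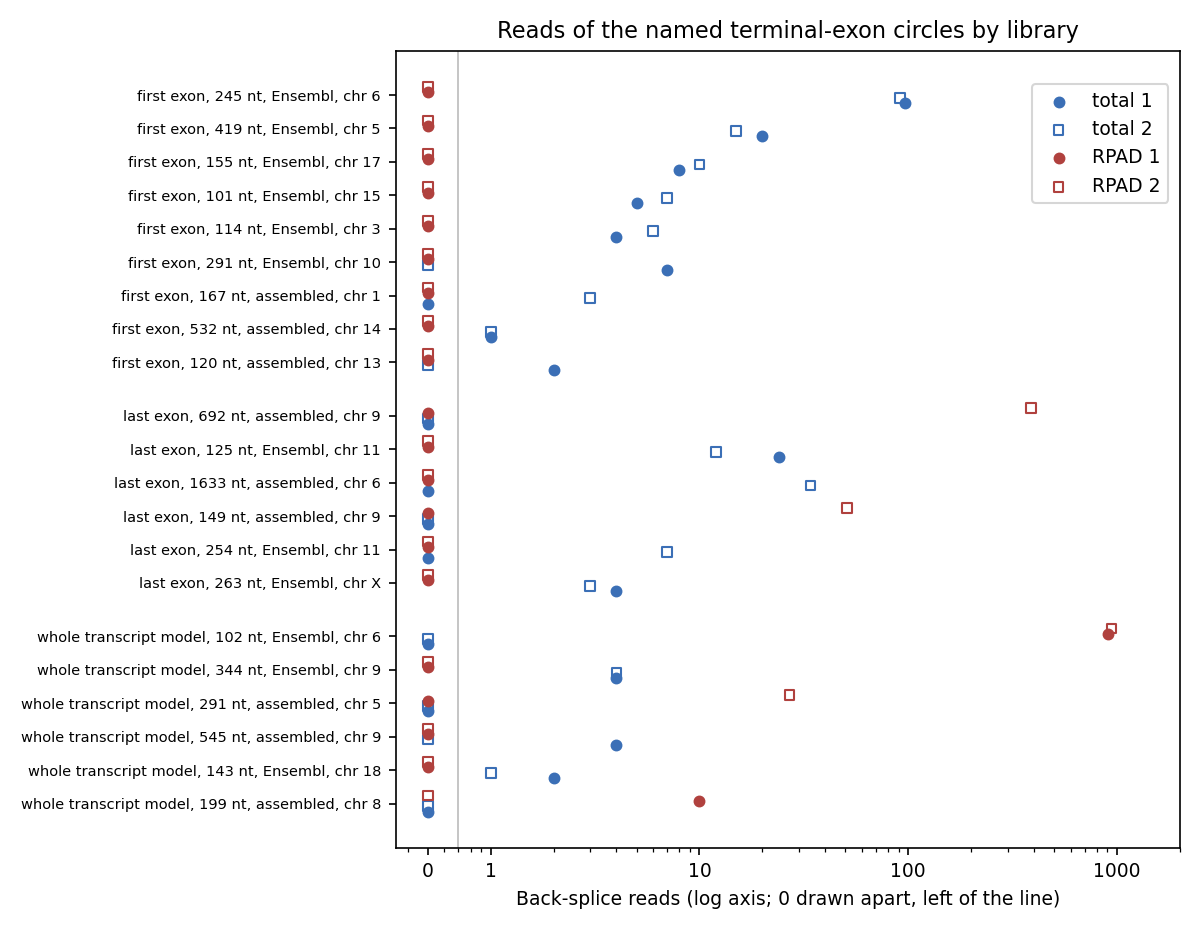
Back-splice reads (log axis, 0 drawn apart) of the 21 circles named by rule, 1 row per circle, with round points for replicate 1, squares for replicate 2, blue for total RNA and red for RPAD. In every row the reads lie in the total libraries or in RPAD and never in both, and the 102 nt whole-model circle is the only one of the 21 with reads in both RPAD libraries.

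Among first-exon circles, which run from the transcript start to the end of exon 1 or of a later exon, the leading ones were read in both total RNA libraries. The one with most reads spanned 136821688 to 136824326 of chromosome 6, minus strand, and joined exons 1 to 3 of ENSMUST00000032342 into 245 nt. It had 97 and 91 reads in the total libraries and 0 in both RPAD libraries. It alone held 31.0% and 29.5% of all terminal-exon reads of the total RNA libraries, and no other exonic circle overlapped it.

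The next first-exon circle took in exons 1 to 5 of ENSMUST00000031654 on chromosome 5, from 148672204 to 148684235 (419 nt), with 20 and 15 reads in the total libraries. On chromosome 17, exons 1 and 2 of ENSMUST00000172501, from 35089081 to 35089413 (155 nt), had 8 and 10. Both circles had 0 reads in RPAD, as did the 2 that follow.

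The shortest of all 236 circles was exon 1 of ENSMUST00000097014 on chromosome 15, from 98783882 to 98783982 (101 nt), with 5 and 7 reads in the total libraries. Exons 1 and 2 of ENSMUST00000135876 on chromosome 3, from 58329965 to 58335078 (114 nt), had 4 and 6. All 5 circles were read in both total RNA libraries and in neither RPAD library. Of the 924 circles of any kind with enough reads for a test, 26.6% had both RPAD values below both total RNA values. That is a looser measure, as it also admits circles with reads in RPAD.

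Other named first-exon circles were read less evenly. Exons 1 and 2 of ENSMUST00000019962 on chromosome 10, from 41239306 to 41241813 (291 nt), had 7 reads in total RNA 1 and 0 in the other 3 libraries. The named circles on assembled models were thinner. A chromosome 1 circle from 137268992 to 137269158 (167 nt) had 3 reads in total RNA 2, a chromosome 14 circle from 99697910 to 99698441 (532 nt) had 1 in each total RNA library, and a chromosome 13 circle from 13666428 to 13666547 (120 nt) had 2 in total RNA 1.

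First-exon circles were small in reach. Of the 108, 48 consisted of exon 1 alone, 32 ended at exon 2, 10 at exon 3 and 10 at exon 4, and the farthest 2 reached exon 9. Exons 1 to 5 of ENSMUST00000111882 on chromosome 2 from 76812408 to 76820604 (892 nt) had 0, 1, 0 and 2 reads in the 4 libraries, total RNA first.

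Last-exon circles run from a 3' splice site to the annotated transcript end, and 3 of the 4 with most reads were read in 1 library each. The one with most reads spanned 66387559 to 66414710 of chromosome 9, minus strand, and joined exons 2 to 9 of an assembled model (692 nt). RPAD 2 had 388 reads of it and the other 3 libraries 0. A second circle with the same last exon, of exons 8 and 9 from 66387559 to 66387982 (149 nt), had 51 reads, again in RPAD 2 alone.

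The first of these 2 circles shares its exon 2 end, at 66414710, with an internal circle on another model. That internal circle, from 66387869 to 66414710 (6 exons, 538 nt), had 137, 269, 532 and 1156 reads and was thus read in all 4 libraries. The last-exon circle was therefore at 0 in 3 libraries where its internal neighbour had 137 to 532 reads.

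On chromosome 6 the last 10 exons of an assembled model, 8 to 17, from 140492241 to 140528636 (1633 nt), had 34 reads in total RNA 2 and 0 elsewhere. Internal circles with the same start had reads in other libraries: 7 in total RNA 1 and 1 in RPAD 1 for the circle to 140504591, and 35 in RPAD 1 for the circle to 140517402. The last-exon circle thus had its reads in a library where these internal circles had none.

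A host on chromosome 11 gave 6 last-exon circles from 3 starts and 2 ends. The ends, at 104448523 (ENSMUST00000123074) and 104448529 (ENSMUST00000106956), are 6 nt apart. The starts were those of the last exon (104448399), the exon before it (104447041) and the exon before that (104446251). The last exon alone, joined head to tail, had 24 and 12 reads with the shorter end (125 nt) and 6 and 1 with the longer end (131 nt). With 2 exons there were 2 and 0 reads (170 nt) and 1 and 0 (176 nt). With 3 exons there were 4 and 1 reads (248 nt) and 0 and 7 (254 nt).

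Summed over the 6 circles, total RNA libraries 1 and 2 had 37 and 21 reads and both RPAD libraries 0. The shorter end took 30 and 13 of these reads and the longer end 7 and 8. The shorter end was ahead in both libraries, and circles with the longer end came from all 3 starts. The only other exonic circle found here, of 2 internal exons from 104446251 to 104447085 (123 nt), had 2 reads in total RNA 2.

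**Figure D3:**
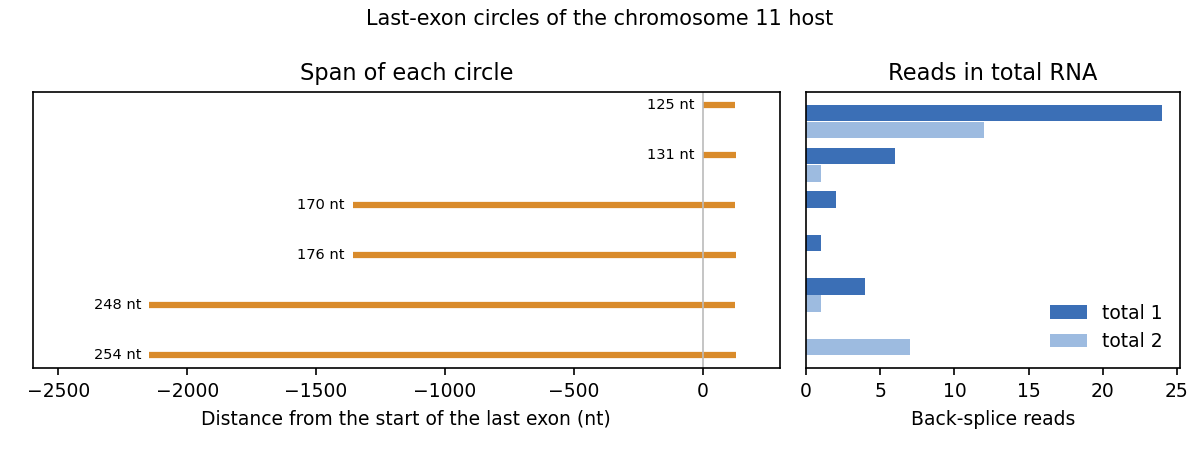
The left panel draws the span of the 6 last-exon circles of the chromosome 11 host against distance from the start of the last exon, each with its spliced length. The right panel gives the reads of each in the 2 total RNA libraries: the last exon alone with the shorter end has 24 and 12 reads, and no other of the 6 has more than 7.

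Ends a few nucleotides apart were more frequent among last-exon circles than among internal circles. Of 81 last-exon circles, 16 (19.8%) shared 1 end with another exonic circle whose other end lay at most 10 nt away. The share was 2 of 108 (1.85%) for first-exon circles, 0 of 47 for whole-model circles and 14 of 3838 (0.365%) for internal circles. Circles paired with each other count from both sides: 2 of the 16 last-exon circles had an internal partner, and the rest another last-exon circle. The 16 include all 6 circles of the chromosome 11 host. Among the 14 internal circles, 10 had an internal partner. These shares describe the lists without a test over libraries. Examples are exon 6 of ENSMUST00000115342 on the X chromosome, from 20451597 to 20451859 (263 nt), with 4 and 3 reads in the total libraries, and the circle from the same start to 20451861 (265 nt) with 0 and 2.

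In 4 cases the close partner of a first- or last-exon circle was internal. A last-exon circle at 34287523 to 34299928 of chromosome 2 (3 exons, 569 nt) had 9 reads in RPAD 1, while the internal circle from the same start to 34299926 had 135, 192, 181 and 0 reads. The 2 circles differ by 2 nt at the end that is a transcript end in the first.

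Whole-model circles were nearly all single exons, and their reads came mostly from 1 circle. That circle, chromosome 6 from 47731623 to 47731724 on the plus strand (ENSMUST00000083011, 102 nt), had 0 reads in both total RNA libraries and 909 and 941 in RPAD. It held 91.5% and 62.0% of terminal-exon reads in RPAD 1 and RPAD 2. The other 46 whole-model circles together had 54 and 77 reads in RPAD and 15 and 14 in the total libraries.

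Of the 12 whole-model circles with Ensembl-style names, 11 had 1 exon and 9 were at most 200 nt long. ENSMUST00000053150 on chromosome 9, from 114891515 to 114891858 (344 nt), had 4 reads in each total RNA library and 0 in RPAD. ENSMUST00000083211 on chromosome 18, from 36961520 to 36961662 (143 nt), had 2 and 1 reads in the total libraries and 0 in RPAD. ENSMUST00000083213 on chromosome 14, from 76247712 to 76247841 (130 nt), had 1 read in total RNA 2 and 2 in RPAD 2. Short whole-model circles were thus read in either kind of RNA, and the chromosome 6 circle stood apart by its count.

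Of the 35 whole-model circles on assembled models, 30 carried no strand in the files, whereas every internal circle had a strand. The highest counts were 27 reads in RPAD 2 for chromosome 5 from 72910401 to 72910691 (291 nt) and 10 in RPAD 1 for chromosome 8 from 128026728 to 128026926 (199 nt). A plus-strand model on chromosome 9 from 7723110 to 7723654 (545 nt) had 4 reads in total RNA 1. Each of the 35 was listed in 1 library, 27 of them in RPAD and 8 in the total libraries.

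Terminal-exon circles were shorter and held fewer exons than internal circles in each of the 4 libraries. Median spliced lengths were 240, 241, 180.5 and 201 nt in the 4 libraries, total RNA first, against 556, 584, 639 and 587 nt for internal circles. The within-library difference averaged -376 nt (exact sign-flip permutation p = 0.13, the smallest that 4 libraries can give; lower in 4 of 4). The mean number of exons was 1.83 ± 0.289 against 4.71 ± 0.397 (SD over n = 4 libraries; exact sign-flip permutation p = 0.13, fewer in 4 of 4). Part of both differences follows from the choice of circles: a model of 1 exon has no intron, so its circle is never internal. Of the 47 whole-model circles, 45 had 1 exon. Among circles of 2 or more exons the means were 2.92, 3.13, 4.67 and 4.1, against 5.55, 5.55, 6.06 and 5.29 for internal circles. RPAD had only 3 and 10 such terminal-exon circles.

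Circles of 1 exon were more frequent among terminal-exon circles, partly by the choice of circles described above. They made up 42.2% and 51.1% of terminal-exon circles in the total libraries and 86.4% and 77.8% in RPAD, against 15.5% to 21.9% of internal circles over the 4 libraries (difference 44.6 percentage points, exact sign-flip permutation p = 0.13, higher in 4 of 4). Among single-exon circles the order turned: the median was 196 nt for 131 terminal-exon circles and 134 nt for 832 internal ones, and the within-library difference averaged 42.8 nt (exact sign-flip permutation p = 0.25), with RPAD 1 in the opposite direction (162 against 168.5 nt). Among single-exon circles, last exons had a median of 232 nt, whole models 189 nt and first exons 174.5 nt. With 2 exons the medians were 195 nt (49 circles) and 269.5 nt (606 circles), so terminal-exon circles were the shorter ones there.

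**Figure D4:**
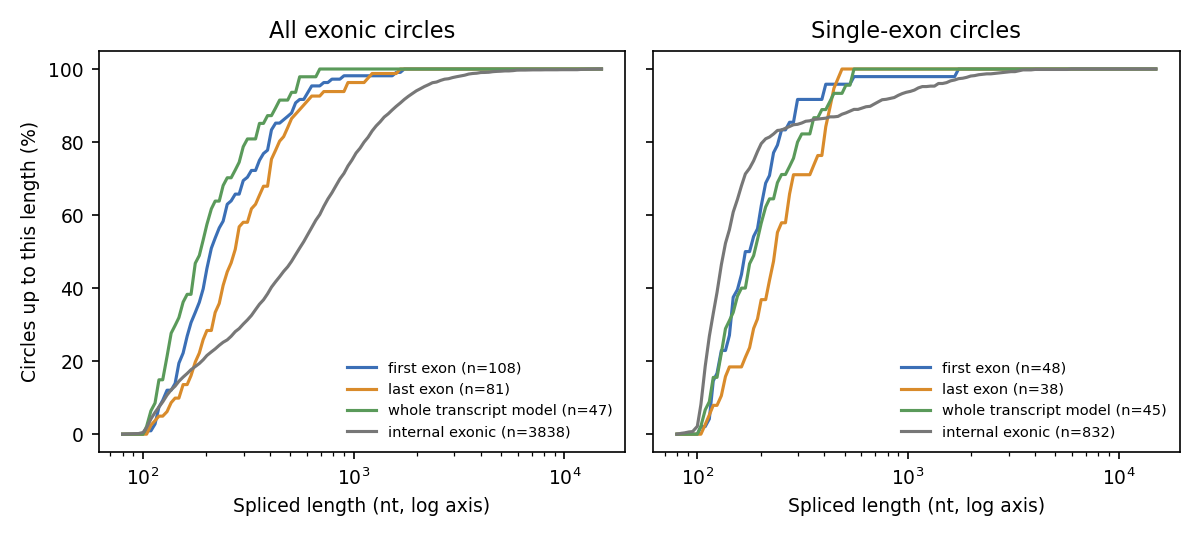
Cumulative share of circles (vertical axis, %) up to a spliced length (log axis, nt) for first-exon, last-exon, whole-model and internal exonic circles, for all circles (left) and for circles of 1 exon (right). Over all circles the 3 terminal classes lie to the left of internal circles above about 200 nt (medians 210, 271 and 189 against 540 nt), while among single-exon circles their medians lie to the right (174.5, 232 and 189 against 134 nt).

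The intron on the spliced side had a lower median length than beside internal circles in all 4 libraries, which is given as a description without a test. The intron after first-exon circles had a median of 1515.5 nt (n = 108), against 3594 nt after internal circles, and it exceeded 10000 nt in 11.1% against 25.2%. The intron before last-exon circles had a median of 582 nt (n = 81), against 4517 nt before internal circles, and it exceeded 10000 nt in 2.47% against 31.7%. In the total RNA libraries the medians were 1670 and 1386 nt against 4142 and 3728 nt after the circle, and 712 and 538 nt against 5039 and 4961 nt before it. The RPAD libraries had 3 and 16 first-exon and 4 and 9 last-exon circles, with medians again below those of internal circles.

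The spliced ends of last-exon circles were shared with other exonic circles more often than those of first-exon circles. A spliced end was shared in 29 of 81 last-exon circles (35.8%), in 6 of 108 first-exon circles (5.56%) and at 23.2% of the ends of internal circles. Part of the last-exon share repeats the close ends above. Last-exon circles formed 9 pairs with the same spliced end and transcript ends 2 to 228 nt apart, some of them on the chromosome 11 host. At the transcript-end side, 16 of 81 last-exon and 10 of 108 first-exon circles shared their end with another exonic circle, and no whole-model circle did. None of the 189 transcript ends of first- and last-exon circles coincided with an intron boundary of any other entry of the 4 files. Another listed intron or exonic circle on the same strand ran past the end in 15 of 81 last-exon and 7 of 108 first-exon circles.

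Of the 236 circles 209 (88.6%) were listed in 1 library, against 80.4% of internal circles, and 133 (56.4%) had 1 read in all, against 29.6%. In all, 170 were listed in the total libraries alone (71.6% of all exonic circles were), 63 in RPAD alone (17.3% of all exonic circles) and 3 in both (11% of all exonic circles). The 3 were the chromosome 14 circle of 130 nt, the chromosome 2 circle of exons 1 to 5 and a last-exon circle on chromosome 17 from 29236289 to 29236472 (184 nt). Each had 1 read in total RNA 2 and 2 in RPAD 2, so the call of a shared circle rests on 3 reads each time.

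Within each library the share of listed circles that the other group also listed was lower for terminal-exon than for internal circles. It was 0% and 3.19% against 17.4% and 18.4% in the total libraries, and 0% and 6.67% against 52.0% and 41.0% in RPAD. The difference averaged -29.7 percentage points (exact sign-flip permutation p = 0.13, the smallest possible; lower in 4 of 4 libraries), and -18.6 points without RPAD 1. Of the 87 terminal-exon circles on assembled models, 0 were listed in both kinds of RNA. With Ensembl-style models alone the mean shares were 7.28% for terminal-exon and 30.2% for internal circles, a difference of -23.0 points. The same 3 terminal-exon and 447 internal circles give the values on both sides. The 4 libraries are thus not independent here, and nothing is drawn from this p-value. Terminal-exon circles had fewer reads, with medians of 1, 1, 4 and 2 against 2, 3, 24 and 16, so the comparison was repeated by read number.

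With 5 reads or more in 1 kind of RNA, no terminal-exon circle was listed in the other kind. With at least 5 reads over the total RNA pair, 0 of 18 were listed in RPAD (95% exact interval up to 18.5%), against 298 of 1100 internal circles (27.1%, 24.5 to 29.8). With at least 5 reads over the RPAD pair, 0 of 18 were listed in the total libraries (interval again up to 18.5%), against 399 of 816 internal circles (48.9%, 45.4 to 52.4).

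In narrower classes of read number, fewer of these differences exceeded the counting error. From total RNA to RPAD the shares at 1 read were 3 of 110 and 51 of 1087, and their intervals overlapped. At 2 to 4 reads they were 0 of 45 (interval up to 7.87%) and 98 of 1009 (9.71%, 7.96 to 11.7). At 5 to 19 reads 0 of 14 had an interval up to 23.2%, which holds the internal share of 20.1%, so no difference was detectable there. From RPAD to total RNA the intervals overlapped at 1 read, with 0 of 26 (up to 13.2%) against 14.5% (8.70 to 22.2) of internal circles, and at 2 to 4 reads, with 3 of 22 (13.6%, 2.91 to 34.9) against 19.9% (13.9 to 27.0). At 5 to 19 reads they did not, with 0 of 14 (up to 23.2%) against 36.8% (31.0 to 42.9). With 20 reads or more, in either direction, 4 terminal-exon circles were too few for a difference to be detectable. These intervals cover counting error alone and take circles as independent, although circles of a library share its preparation and 4 of the 18 from total RNA are ones of the chromosome 11 host.

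**Figure D5:**
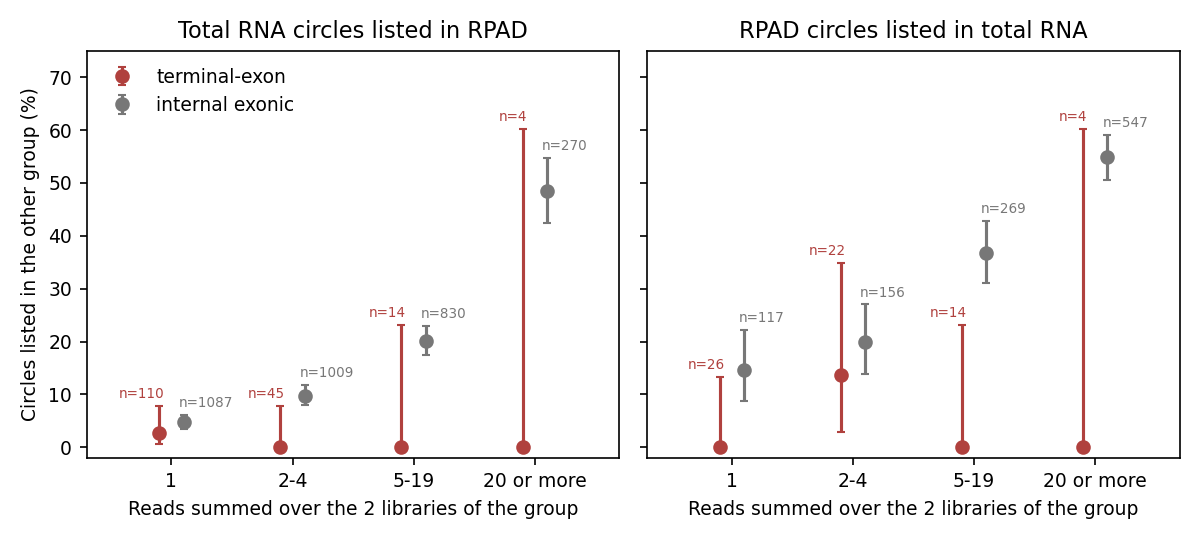
Percentage of circles of 1 group listed in the other (points, with 95% exact intervals) by reads summed over the 2 libraries, for terminal-exon (red) and internal (grey) circles, from total RNA to RPAD (left) and the reverse (right). From 5 reads up, every terminal-exon point lies at 0 while internal points lie at 20.1% and 48.5% on the left and 36.8% and 54.8% on the right; with 4 circles at 20 reads or more the terminal-exon interval reaches 60.2%.

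Between libraries of the same kind, terminal-exon circles recurred in the total libraries about as often as internal circles and rarely in RPAD. Of those in total RNA 1, 22.5% were also in total RNA 2, and 24.5% the other way, against 25.2% and 28.7% of internal circles. With at least 5 reads, 7 of 8 terminal-exon circles of total RNA 1 and 6 of 10 of total RNA 2 were in the other library, against 43.1% and 45.9% of internal circles. Of the RPAD circles, 1 of 22 and 1 of 45 recurred, the 102 nt circle each time, against 25.2% and 16.4% of internal circles. The within-library difference averaged -10.4 percentage points (exact sign-flip permutation p = 0.13; lower in 4 of 4). Both libraries of a kind count the same shared circles, 23 terminal-exon ones in total RNA and 1 in RPAD. The 4 values are thus not independent, and nothing is drawn from this p-value. Without either RPAD library the difference was -3.47 points, and without either total RNA library -17.4 points, since a library without its pair gives no value. With Ensembl-style models alone the difference was -4.62 points. In RPAD the 102 nt circle was 1 of 7 and 1 of 12 terminal-exon circles with Ensembl-style names. Of the 15 and 33 on assembled models, 0 recurred.

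The 23 circles in both total RNA libraries were 12 first-exon, 9 last-exon and 2 whole-model circles, 20 of them with Ensembl-style names. They held 63.6% and 54.9% of terminal-exon reads in those libraries, and 0 of the 23 had a read in RPAD. The 496 internal circles in both total RNA libraries were not compared in this way, so nothing is drawn from this 0. Circles with a single read were more frequent among terminal-exon than internal circles, at 64.7%, 67.0%, 22.7% and 46.7% against 36.0%, 30.9%, 7.76% and 12.3% in the 4 libraries, total RNA first (difference 28.5 percentage points, exact sign-flip permutation p = 0.13, higher in 4 of 4).

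The test of abundance, RPAD against total RNA, was fitted with edgeR's quasi-likelihood test on all circles. Its low-count filter kept 924 circles, 7 of them terminal-exon circles, and 0 of the 7 passed a Benjamini-Hochberg adjusted p of 0.05 (0% of all 924). All 7 had 0 reads in both libraries of 1 group, 6 in RPAD and 1 in the total libraries. They passed the filter through the group where they were read, so their number and direction support nothing. Over all tested circles the groups did not overlap for 26.6% with lower and 10.2% with higher values in RPAD. The 7 lay at an unadjusted p under 0.05 with edgeR and with DESeq2, which also called 0, against 15.8% of tested circles on the lower and 1.73% on the higher side with edgeR.

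Setting the group at 0 to 3 reads in all, and scaling by all back-splice reads, the chromosome 6 circle of 102 nt was at least 135-fold higher in RPAD. The first-exon circle of 245 nt was at least 286-fold lower, those of 419 nt and 155 nt at least 53.3-fold and 27.4-fold lower, and the last-exon circle of 125 nt at least 54.8-fold lower. The first-exon circles of 101 nt and 114 nt, with 12 and 10 reads in all, gave bounds of 18.3-fold and 15.2-fold. The bounds take the group with reads as counted, so they are least certain for circles with few reads, and they fall when a library of the group at 0 is left out. The bound of 135-fold was 64.9-fold without total RNA 1 and 70.1-fold without total RNA 2. The bound of 286-fold was 160-fold without RPAD 1 and 126-fold without RPAD 2, and those of 54.8-fold and 53.3-fold were 30.7-fold and 29.8-fold without RPAD 1 and 24.1-fold and 23.5-fold without RPAD 2. The 3 lower ones were 15.3-fold, 10.2-fold and 8.52-fold without RPAD 1 and 12.1-fold, 8.04-fold and 6.70-fold without RPAD 2. Each of the 7 had an adjusted p of 0.179 (edgeR, Benjamini-Hochberg). Without RPAD 1 edgeR called 5 of them (19.9% of all 924 circles), without RPAD 2 it called 6 (23.2% of all 924), and without either total RNA library 0 (0% of all 924). As all 7 passed the filter through the group where they were read, nothing is read from these counts. In the fits without an RPAD library the lone RPAD library is assumed to vary like the total RNA pair.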

How the data were processed

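Each of the 4 libraries had 1 deposited list of circles with the count of reads over each back-splice junction (raw counts, per the file headers) and a whole-number score from 0 to 3, which the headers name without defining it. The deposited score was used to drop circles in 1 alternative. The submitters' processing notes name mm9, cutadapt, TopHat and Cufflinks 2.2.1, and the caller of back-splices was not given in the sources used here. The amplified libraries (17 PCR cycles, per the labels' protocols) carry no molecular identifiers, so reads are not independent molecules and intervals cover counting error only.

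The members, classes and tests were chosen with earlier results of these data known. Shares and medians were computed per library and compared by exact two-sided permutation over libraries, or by exact sign flips of the terminal minus internal difference within libraries. The share listed in the other group was added after the lists had been seen. Intervals are Clopper-Pearson (95%). Counts of all circles were tested with edgeR 4.0.16 in R 4.3.3 (quasi-likelihood test, TMM, minimum count 5 and minimum total 10), and with DESeq2 1.42.0 as an alternative. Scripts were tested on simulated data. Named circles are the 6 with the highest mean share of exonic reads in each class, the 3 highest of each kind of model in it, and the 3 tested circles with the smallest edgeR p in each direction. Other circles of the chromosome 11 host, neighbours, close-end examples and the 3 circles in both kinds of RNA were picked after their values were seen. Gene symbols could not be matched, so gene lists were not used.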

Additional observations from a re-analysis of the deposited data

How the results depend on the processing

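Of 122 comparisons of a result on these circles with an alternative (score 0, at least 2 reads, Ensembl-style models, thinning to the smallest exonic total, left-out libraries or circles, other scalings and filters of the edgeR fit), 111 kept their direction and, for calls, their number. Some of the 111 were fixed in advance, such as the direction of the share of exonic reads without the 102 nt circle. Since 4 libraries cannot bring the permutation tests under 0.05, their p-values show nothing about stability. Requiring every entry of a circle to be terminal changed no value, because no circle had entries that differed, and is not counted here. The share of exonic circles, RPAD minus total RNA, was 0.0518 percentage points and turned to -0.0328 with score 0, to -3.33 with Ensembl-style models alone and to -1.73 after thinning. With 1 library left out it ran from -0.640 to 0.743. The share of exonic reads, -0.255 points, was 0.0693 with circles of at least 2 reads. The assembled-model share of reads ran from -9.49 to 20.96 points with 1 library left out, and the last-exon share turned from -15.4 to 22.02 without the 102 nt circle. The length difference turned to 42.8 nt among single-exon circles. The share of circles with 1 read has no value where at least 2 reads are required. The number of circles called by edgeR was 0 with all 4 libraries, 5 without RPAD 1, 6 without RPAD 2, and ran from 0 to 6 over the left-out libraries. Of the 924 circles tested, edgeR called 0 with all libraries and 184 and 214 without RPAD 1 and RPAD 2. The cause was not tested for any of these. With the replicate number as a block 0 of the 7 tested circles were called, with a smallest adjusted p of 1, and same-numbered libraries deviated together with a correlation of 0.0524 over the 924 circles and 0.100 over the 462 exonic ones. The labels state no shared culture or day for a number, so the block was not used elsewhere. The block left 1 of 7 lower and 1 of 7 higher at an unadjusted p under 0.05, against 6 and 1 without it. After thinning to 15392 exonic reads the libraries listed 99.4, 94, 14.8 and 18.1 of these circles, total RNA first.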
